A study of Mus musculus with 2 samples.

Results

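In these leukemic B cell progenitors 3 of the 5908 listed STAT5 peaks lay at 5 of 67 replication-dependent histone genes (7.46%), where 14.3% of all protein-coding genes had a peak by the same rule. Of the 3 peaks, 1 lay at H1f10, which was taken in through a synonym and is known to be expressed outside S phase. Among the 57 core histone genes, taken by symbol, 4 (7.02%) had a peak, with 2 peaks in all. Histone genes are short, and among genes of at most 1 kb the order was the other way (5.17% of histone genes against 2.55% of others without chemoreceptor genes). That 5.17% was 3 of 58 genes, all counted by 1 shared peak. Peaks per Mb of gene windows also had the other order (7.74 against 3.31), with an interval for histone genes that includes the lower value. Members were the protein-coding genes of the RefSeq table of mouse assembly GRCm38.p6 whose symbol has the cluster form of a core histone (H2ac, H2bc, H3c or H4c with a number), which gave 57 genes. No symbol has the form H1 with a hyphen and a number, so the linker histone genes were taken through synonyms of that form, which gave 10 more (H1f0 to H1f8 and H1f10). All 67 were among 21779 protein-coding genes on assembled chromosomes. A peak was counted for a gene when its midpoint lay inside the gene or within 5 kb of either end. A peak near several genes was counted once among peaks.

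The data came from 1 STAT5 ChIP library, with 1 input library that has no peaks of its own here, of lymph node cells of a C57BL/6 mouse with B cell progenitor leukemia. The genotype was Stat5b-CAxBlnk+/-: the mouse carried a constitutively active form of Stat5b and was heterozygous for a mutation of Blnk, which encodes an adaptor downstream of the pre-B cell receptor. Both libraries share genotype, tissue and treatment, 10 ng/mL IL7 for 30 minutes, and neither the age of the mouse nor the promoter of the transgene is stated in the labels. Without replicates no difference could be tested over samples. Read depth is unknown. A peak's absence from the list does not show that a gene was free of STAT5. A peak list holds no expression, so the labelled cell type was not checked against markers.

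Core histones H2A, H2B, H3 and H4 form the nucleosome, and linker histone H1 binds the DNA between nucleosomes. Their replication-dependent genes lie in clusters, are short, lack introns in their main transcripts, and are transcribed in S phase at histone locus bodies; the mRNAs end in a stem-loop in place of a poly(A) tail. STAT5 is the transcription factor that IL7 and related cytokines activate, and STAT dimers bind the palindrome TTCNNNGAA. Some genes of the set are known to be expressed otherwise: H1f0 and H1f10 outside S phase, H1f6, H1f7, H2ac1 and H2bc1 in male germ cells, and H1f8 in oocytes.

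Of 62 members with a RefSeq promoter window, 1 had it overlapped by a peak (against 3.28% of 17492 protein-coding genes): H4c12, on the minus strand of chromosome 13. RefSeq's window (GRCm38.p6, chr13:21750504-21750803, 250 bases before the start site to 50 after) is shown first, with the 165 bases inside the peak in capitals. H4c11, on the plus strand (chr13:21734784-21735083), is shown because its window is nearly the same sequence and it had no peak within 5 kb; capitals there mark the 26 bases that differ from H4c12 or lie outside the alignment. The upstream window of the short H2bc6 transcript, minus strand (chr13:23585921-23586220), is shown as an H2B window that has the octamer ATTTGCAT, in capitals; 7 of 15 H2B windows have it, and the other H2bc6 window does not. The last 2 were chosen after their values were seen.
H4c12: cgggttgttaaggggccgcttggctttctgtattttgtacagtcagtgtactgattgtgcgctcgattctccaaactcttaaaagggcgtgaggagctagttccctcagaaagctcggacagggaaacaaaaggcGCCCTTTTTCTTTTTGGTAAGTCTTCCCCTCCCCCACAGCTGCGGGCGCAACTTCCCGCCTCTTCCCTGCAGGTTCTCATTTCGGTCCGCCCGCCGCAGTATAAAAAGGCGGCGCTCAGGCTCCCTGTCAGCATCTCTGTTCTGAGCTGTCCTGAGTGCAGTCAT
H4c11: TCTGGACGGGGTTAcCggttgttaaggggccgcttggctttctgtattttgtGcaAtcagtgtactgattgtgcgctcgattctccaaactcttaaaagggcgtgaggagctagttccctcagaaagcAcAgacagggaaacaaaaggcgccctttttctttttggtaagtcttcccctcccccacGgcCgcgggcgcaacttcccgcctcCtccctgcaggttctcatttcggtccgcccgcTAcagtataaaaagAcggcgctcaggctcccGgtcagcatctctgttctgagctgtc
H2bc6: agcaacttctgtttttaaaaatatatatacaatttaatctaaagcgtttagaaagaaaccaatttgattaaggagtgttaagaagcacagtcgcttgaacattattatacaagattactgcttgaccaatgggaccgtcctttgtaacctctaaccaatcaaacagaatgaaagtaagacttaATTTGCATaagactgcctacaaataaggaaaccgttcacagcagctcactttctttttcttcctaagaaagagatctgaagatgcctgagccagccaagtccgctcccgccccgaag

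H4c12, 1 of 12 genes for histone H4, had the closest listed peak to a start site in the set. The peak ran over 201 bp (chr13:21750468-21750668), with its midpoint 15 bp upstream of the start site of the gene (chr13:21750145-21750553). It was narrow beside the list (median width 295 bp, narrowest 193 bp) and stood at place 5194 of 5908 in the deposited order, the key of which is unknown. Its window held a TATA match (TATAAA, 16 to 11 bases before the start site) inside the peak and no TTCNNNGAA, octamer or CCAAT match. Only 165 of the 201 bp of the peak lay in the window, and the rest was not searched. The peaks at H2bc6 and H1f10 lay outside promoter windows and were not searched either. In an alignment of the windows of H4c12 and H4c11, 274 of 286 aligned bases were identical (95.8%). Of the 165 bases inside the peak, 151 were aligned and 7 of these differed. H4c11 lay 15112 bp from the peak and had none closer. How reads that match both copies were placed is not stated in the labels, and its part in the result was not tested.

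The same peak was counted for a divergent gene pair beside H4c12, H2ac15 and H2bc15, which encode H2A and H2B. It lay 2809 bp from H2ac15, on the far side from its promoter and 3344 bp downstream of its start site, and 3508 bp upstream of the start site of H2bc15. The 3508 bp were the largest distance inside the 5 kb limit, and no peak lay between the start sites of the pair, 164 bp apart. So 3 of the 5 genes counted shared 1 peak, which lay 15 bp from 1 of them.

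H2bc6, an H2B gene, held the second peak in its long gene body. The peak was 415 bp wide (chr13:23593098-23593512, place 119) and also lay inside Gm33387, a long noncoding RNA gene. RefSeq gives H2bc6 37455 bp (chr13:23583670-23621124) and 2 start sites, while the core histone genes have a median length of 487 bp. The peak lay 7335 bp upstream of the start site of the short transcript and 27789 bp downstream of the other, so neither start site had a peak within 5 kb. The next histone gene, H4c4, was 11336 bp away.

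H1f10, a linker histone gene outside the clusters, had the third peak. It was 300 bp wide (chr6:87981932-87982231, place 3318), with its midpoint 599.5 bp upstream of the start site and inside Gm5577, a noncoding RNA gene. Its promoter window was not overlapped. The other 9 H1 genes had no peak within 5 kb: H1f4 and H1f5 were 28.5 and 29.3 kb from one, and H1f8 was 361.2 kb from one. Without H1 genes expressed outside S phase or in germ cells, 0 of the H1 genes had a peak and the set was left with 2 peaks at 4 genes.

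By histone, a peak was counted for 1 of 10 H1 genes, 1 of 17 H2A genes, 2 of 16 H2B genes, 0 of 12 H3 genes and 1 of 12 H4 genes. The H2A gene and 1 of the 2 H2B genes were counted only by the H4c12 peak. The share was 14.3% over all protein-coding genes and 2.55% over short ones without receptors and histone genes. Against these shares 0 of 12 does not set H3 apart. The H3 gene nearest to a peak was H3c4, 17.0 kb away. Median distances to the nearest peak were 94.0 kb for H1, 59.8 kb for H2A, 35.7 kb for H2B, 104.6 kb for H3 and 61.5 kb for H4. Over 20560 protein-coding genes on autosomes the median was 108.8 kb, with quartiles of 25.3 and 337.1 kb, so each histone's median lay between those quartiles. Neighbouring genes take their distance from the same peak, so these are not independent values.

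**Figure D1:**
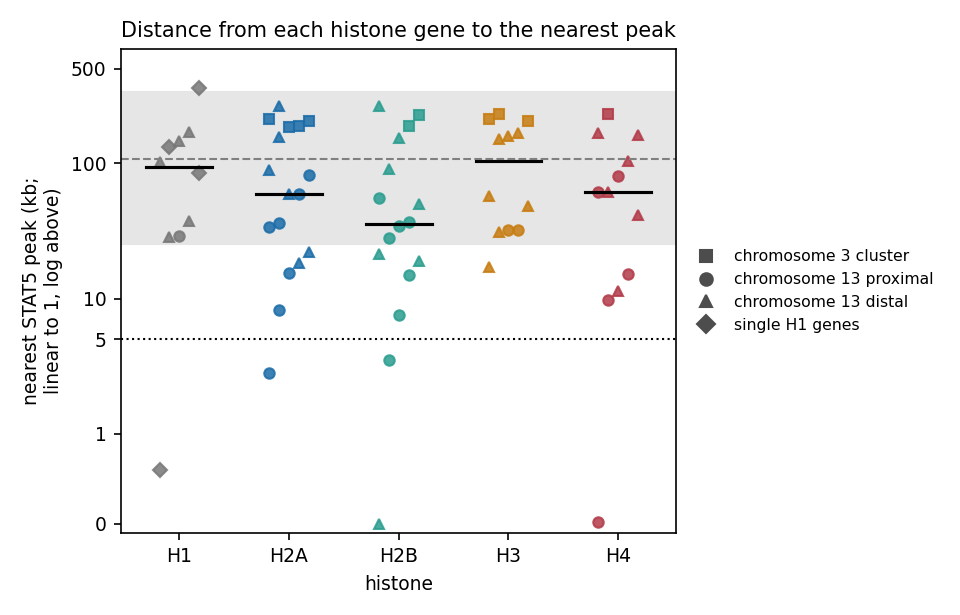
Distance in kb (linear to 1 kb, logarithmic above) from each of 67 histone genes to the nearest peak midpoint, by histone, with symbols for the cluster and a bar at each median. The grey band and dashed line are the quartiles and the median of autosomal protein-coding genes, and the dotted line is the 5 kb limit, under which 5 genes lie.

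All but 4 of the histone genes lay in 3 groups with gaps under 500 kb, and 2 of the 3 groups held peaks. The 4 outside them were H1f0, H1f7, H1f8 and H1f10, each alone. The chromosome 3 cluster, once called Hist2, had 10 genes (4 for H2A, 2 for H2B, 3 for H3 and 1 for H4) in 60.3 kb including flanks, and no listed peak. Its nearest genes to a peak were H2ac21 and H2ac20, 187.5 and 188.0 kb away, and the farthest was H3c13, at 230.8 kb. The chromosome 13 genes, once called Hist1, fell into a proximal group of 22 and a distal group of 31 genes. The proximal group, from H2bc13 to H2bc11, had 3 genes with a peak, all by the H4c12 peak. Its 337.9 kb with flanks held 2 peaks, and the second was 85985 bp from H2ac24, the nearest gene of the set to it. The distal group, from H4c8 to H2ac1, had 1 gene with a peak, H2bc6, and 1 peak in 413.9 kb. The genes at its far end, H2ac1 and H2bc1, were 266.8 and 267.5 kb from their nearest peak.

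**Figure D2:**
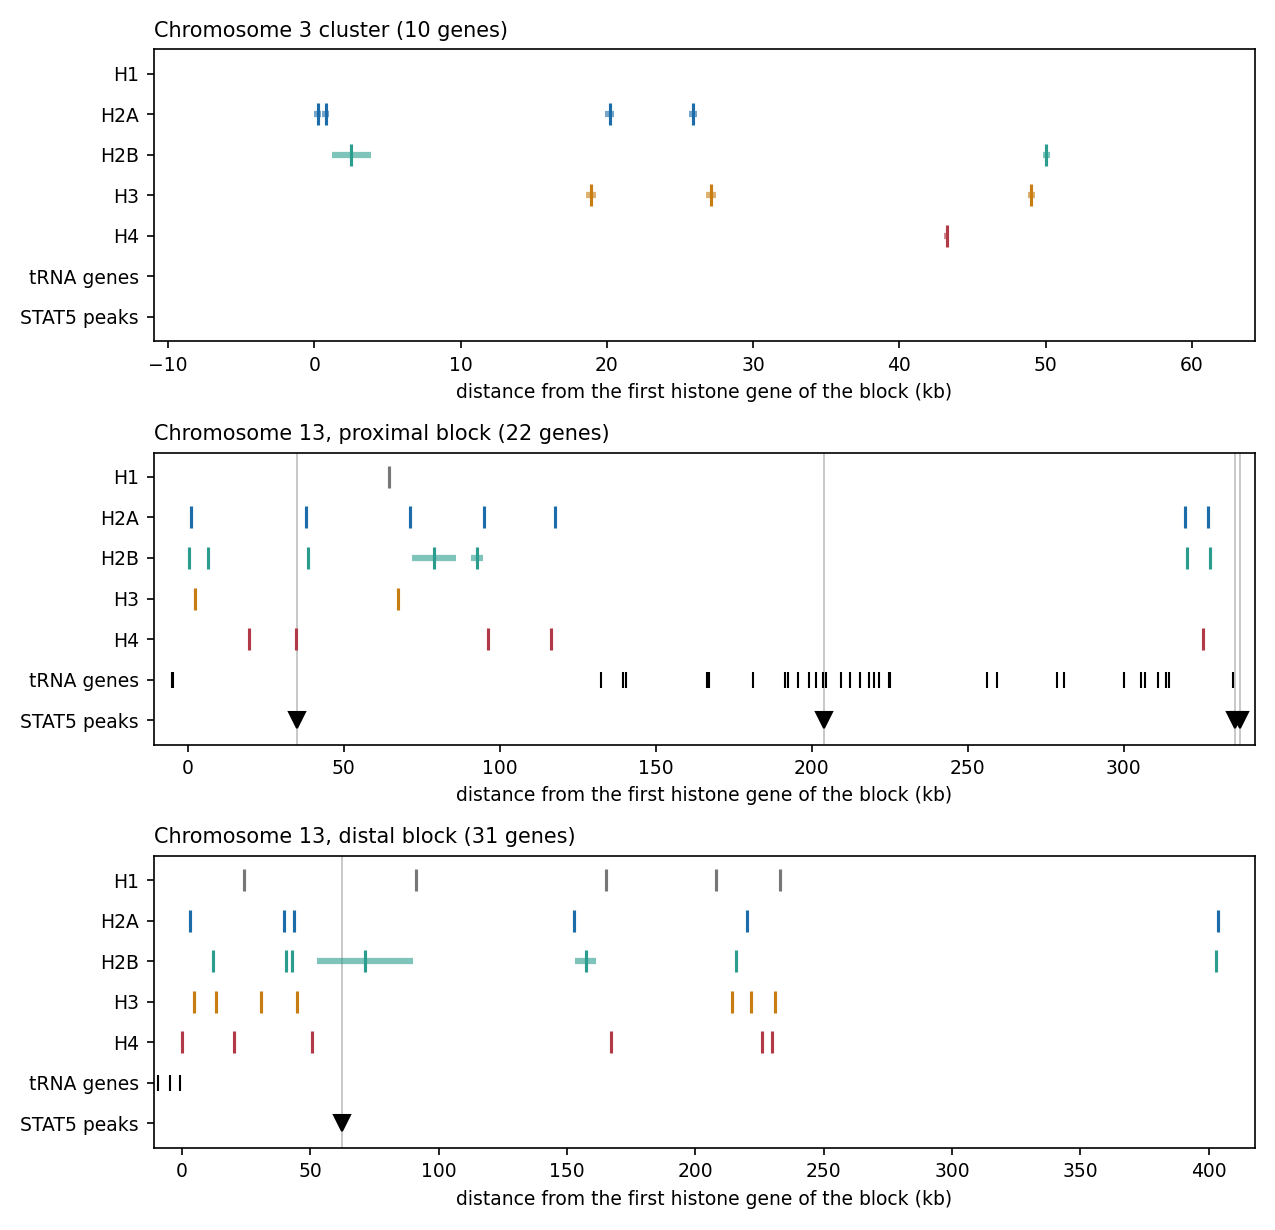
Positions of histone genes by type, tRNA genes and STAT5 peaks (triangles and grey lines) in the 3 groups, in kb from the first histone gene of each. Bars show gene bodies and ticks their midpoints. The chromosome 3 cluster has no peak, and the pair of peaks at the right edge of the proximal group lies beyond H2bc11.

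Peaks were counted for 5 of 67 histone genes (7.46%), against 14.3% of all protein-coding genes by the same rule. Within 1 kb the counts were 3 genes (4.48%) against 12.0%, and within 10 kb 8 genes (11.9%) against 16.9%. Within 20 kb 15 genes (22.4%) had a peak, against 21.6%, so the share of histone genes was below that of all genes at short distances and beside it at 20 kb. The 8 genes at 10 kb and the 15 at 20 kb were reached by the same 5 peaks. The rise between them came from clustered neighbours sharing peaks, so the genes are not separate observations. The genes added at 10 kb were H4c9, H2ac11 and H2bc11, at the end of the proximal group. They share a peak just outside the limit (chr13:22050878-22051479, 602 bp wide, place 20), 7520.5 bp from H2bc11, and a second one 9302 bp from it.

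**Figure D3:**
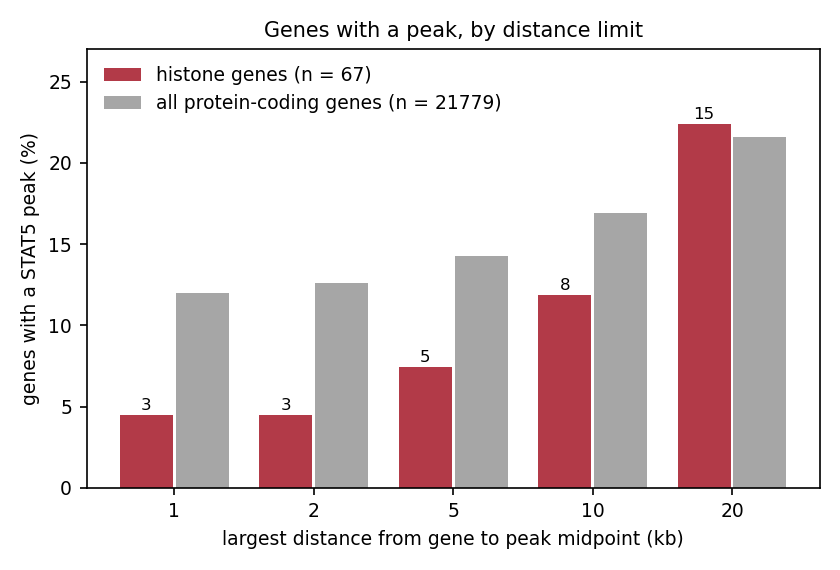
Percentage of the 67 histone genes (red, with the number of genes above each bar) and of 21779 protein-coding genes (grey) with a peak midpoint inside the gene or within the distance on the horizontal axis, in kb. The red bar is lower from 1 to 10 kb and level with the grey one at 20 kb.

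Length bears on this comparison, because a long gene offers more room for a peak. Histone genes had a median length of 496 bp, and 58 of the 67 were at most 1 kb long, of which 3 (5.17%) had a peak. Among all 1566 protein-coding genes of at most 1 kb the share was 1.09%, but 63.7% of those encode olfactory, vomeronasal or taste receptors. Without these receptors and the histone genes it was 2.55% of 510. The share at histone genes was thus lower than over all genes and higher than over short ones, with 1 peak serving the 3 short genes H4c12, H2ac15 and H2bc15.

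Per length of sequence 3 peaks were too few to place histone loci above or below other genes. The 5 kb windows of the 67 genes overlap one another and covered 387.5 kb in all, with 3 peaks, or 7.74 per Mb (exact Poisson 95% interval 1.60 to 22.6, counting error only). The windows of all protein-coding genes held 3.31 per Mb (3.21 to 3.41), inside that interval. Over whole groups with flanks the density was 0 per Mb on chromosome 3 (0 to 61.2), 5.92 in the proximal group of chromosome 13 (0.717 to 21.4) and 2.42 in its distal group (0.0612 to 13.5).

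Other peaks of the chromosome 13 region lay among tRNA genes, which stand between and beside the histone groups and are transcribed by RNA polymerase III. From the first to the last histone gene, with flanks, 2229.2 kb held 7 peaks: 2 at histone genes and 5 within 5 kb of a tRNA gene. Of these, 4 were within 1 kb of one: 64.5 bp from n-TRacg5, 164 bp from n-TSaga5, 411.5 bp from n-TSgct5 and 434.5 bp from n-TAagc13. The peak at n-TSgct5 is the one beyond H2bc11. A peak lay within 1 kb of 6 of 78 tRNA genes in the region (7.69%) and of 10 of 325 elsewhere (3.08%), or 3.97% of all 403. The tRNA genes were looked at after these peaks were seen, and neighbouring ones share peaks. Over the whole list 9 peaks lay within 1 kb of a tRNA gene. How much of the region lies within 5 kb of one of its 78 tRNA genes was not measured, so 5 of 7 peaks has no comparison.

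The histone promoters had matches to the STAT palindrome in 2 windows and many to the letters of elements known from histone promoters. Matches were counted at any position in the window. Of 63 windows of 62 genes, TTCNNNGAA (the same on both strands) was found in 2 (3.17%), against 7.69% of 21263 windows of protein-coding genes. A count this small says little beside that share. The 2 were H1f4, 195 to 187 bases before the start site, and H2bc1, 32 to 40 bases after it, and their nearest peaks were 28.5 and 267.5 kb away. For scale, 38.5% of the 624 protein-coding windows that a peak overlapped held the palindrome, and 6.76% of the others. The octamer ATTTGCAT (either strand), the site of the OCT1 factor in H2B promoters, was in 7 of 15 H2B windows (46.7%) and 6 of 17 H2A windows (35.3%), against 1.66% overall. It was in 0 of 11 H4, 0 of 10 H3 and 0 of 10 H1 windows. CCAAT (either strand) was in 17 of 17 H2A, 15 of 15 H2B and 10 of 10 H3 windows but in 3 of 11 H4 windows (27.3%), against 38.2% overall. TATAAA (either strand) was in 34 of the 63 windows (54.0%), against 12.6%. Its place varied: 27 to 22 bases before the start site in H1f4, 190 to 185 before it in H2bc15 and 21 to 26 after it in H2ac15. The share is thus of windows with these letters, not of promoters with a placed TATA box. None of the 4 motifs contains another, though matches can overlap at their ends, and a divergent pair counts shared bases in both windows. The median GC content was 45.7% in the 63 windows and 56.3% in all protein-coding windows. The part of base composition in the matches was not tested.

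**Figure D4:**
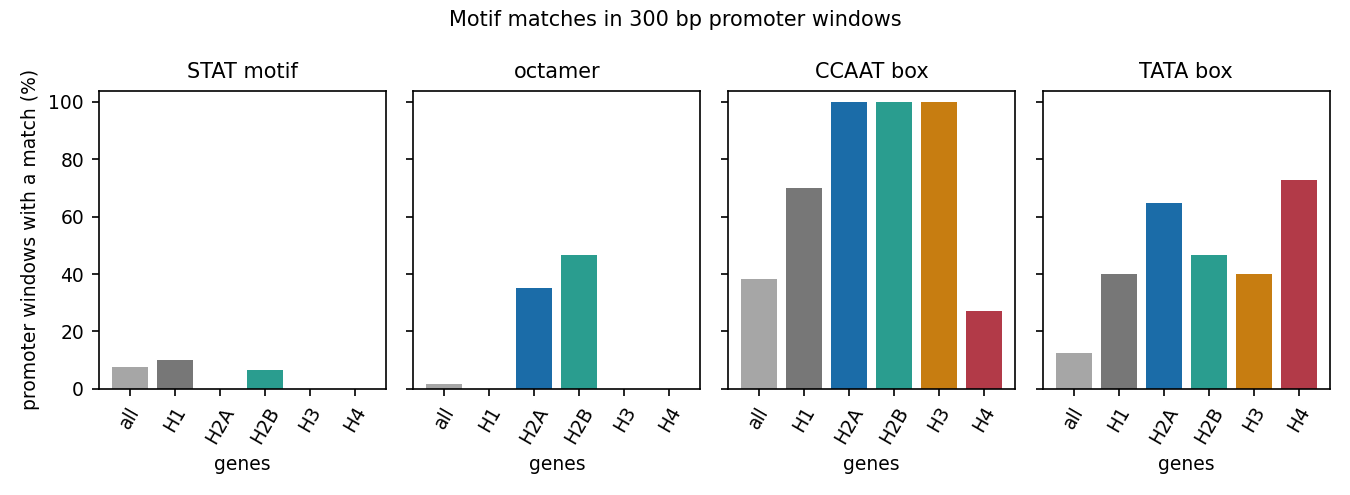
Percentage of 300 bp promoter windows with a match to TTCNNNGAA (STAT motif), ATTTGCAT (octamer), CCAAT or TATAAA on either strand, for all protein-coding windows (all, n = 21263) and the windows of H1 (10), H2A (17), H2B (15), H3 (10) and H4 (11) genes. CCAAT is in every H2A, H2B and H3 window, while H2A, H3 and H4 have no STAT motif. Beside 7.69% of all windows, its absence from sets this small says little.

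Divergent pairs of an H2A and an H2B gene are a hallmark of these clusters. Among the 62 members with an annotated start site there were 9 pairs with start sites within 1000 bp, 164 to 281 bp apart with a median of 180 bp, all of H2A with H2B. No peak lay between the start sites of these pairs. Of all protein-coding genes 3.28% had a promoter window overlapped by a peak, so 0 peaks in 9 short gaps does not set the pairs apart. Pairs with a member that has no annotated start site, or with a gene outside the set, were not counted. Repeated sequence differed among members: 52 of the 63 windows shared no stretch of 50 bases with a window elsewhere, and 9 shared over 50% of theirs (H3c14, H3c15, H2ac18, H2ac19, H2bc23, H2ac23, H2ac24, H4c17 and H4c18). None of these 9 had a peak within 5 kb, but only 7.46% of all 67 histone genes had one, so this count says little. H4c12, which had one, shared 11.6% with H4c11. The part of repeated sequence in the counts was not tested.

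Of 51 genes in a list of histone gene regulators, mRNA processing factors, chaperones and replacement variants, 8 had a peak (15.7%), a share near the 14.3% of all genes. In 3-prime processing and decay 4 of 12 had one. Cpsf3, the endonuclease that cuts histone pre-mRNA, had a peak of 203 bp at its start site (1.0 bp away, place 4908), which also lay 6 bp from Itgb1bp1. Cpsf2, its partner, had one of 636 bp 228.5 bp downstream of its start site (place 649) and 464.5 bp from Ndufb1. Sympk, the scaffold of that complex, had one 147.5 bp upstream of its start site, 690.5 bp from Foxa3, and another inside the gene. Zfp473, which associates with the U7 particle, had one 105 bp upstream of its nearest start site and 133 bp from Vrk3. No peak was listed within 5 kb of Slbp, the stem-loop binding protein, or of Lsm10 and Lsm11, which belong to the U7 particle.

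Among 8 factors of S-phase transcription, Hinfp, an activator of H4 genes, had a peak inside the gene (271 bp wide, place 2059). Gon4l had one 3906.5 bp away that lay 55.5 bp from Msto1. Npat, the coactivator of histone loci, and Casp8ap2 had none. Of 18 chaperone and carrier genes, Cabin1, of the HIRA complex, had 1 peak inside the gene, and Ssrp1, a subunit of FACT, had one 2832 bp upstream that lay inside P2rx3. Of 5 genes for S-phase cyclins, kinase and phosphatase (Ccne1, Ccne2, Ccna2, Cdk2 and Cdc25a), 0 had a peak within 5 kb. The same held for 8 replacement variant genes, among them H2az1, H2ax and H3f3b. With 14.3% of all protein-coding genes at a peak, a count of 0 in lists this short says little.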

How the data were processed

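STAT5 ChIP and input libraries were made from 1 leukemic mouse; 1 peak list was analysed. The deposited values are peak intervals, start and end in bp on mm10, with no count, signal or significance. BWA 0.7.4, Picard and MACS2 appear in the submitters' processing notes without their roles; settings, threshold and use of the input: not given in the sources used here. Other columns left unused: 0.

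Genes, start sites and promoter sequences came from RefSeq tables of GRCm38.p6, whose coordinates are those of mm10. Genes starting before 3000000 bp on any chromosome but Y were left out as probably unplaced. Peak counting was tested on simulated peaks. Members are described by counts beside all protein-coding genes; nothing was tested over samples. Every member and pathway gene with a peak within 5 kb is named. Members and lists were chosen with earlier results of these data known. Python 3.11.15, pandas 2.3.3, numpy 2.4.6 and scipy 1.17.1 were used. Alternatives changed flank, overlap, gene assignment, peak subset, joining and members.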

Additional observations from a re-analysis of the deposited data

How the results depend on the processing

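Counts of genes at a peak rest on 3 peaks and moved with the distance rule. The main values were 5 histone genes and 3 peaks, with 1 H1, 1 H2A, 2 H2B, 0 H3 and 1 H4 genes, and 8 of the 51 other genes. Flanks of 1 and of 2 kb gave 3 genes, with 0 H2A and 1 H2B. Flanks of 10 kb gave 8 genes and 5 peaks, with 2 H2A and 2 H4. Flanks of 20 kb gave 15 genes and 5 peaks, with 4 H2A, 5 H2B, 1 H3 and 4 H4, and 13 other genes. Assigning each peak to the nearest protein-coding gene gave 3 genes, with 0 H2A and 1 H2B. The first 50% of the deposited lines gave 1 gene and 1 peak (H2bc6), with 0 H1, 0 H2A, 1 H2B and 0 H4, and 5 other genes. Peaks at least as wide as the median gave 2 genes, with 0 H2A, 1 H2B and 0 H4, and 3 other genes. Leaving out H1 genes expressed outside S phase or in germ cells gave 0 H1. Members by symbol only, an unplanned alternative without H1 genes, gave 4 genes and 2 peaks. Distance from an annotated start site, an alternative chosen after seeing the data, gave 1 H2B and 5 other genes. In all, 35 of the values under these alternatives differed by over 1.5 times from the main one and 50 did not. Any overlap of 1 bp, and joining peaks closer than 1 kb, changed no count. No paired analysis was possible because there was 1 peak list. Depth is unknown, so its effect on the number of listed peaks was not tested.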

Other observations

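Another H4 gene, H4f16, once called Hist4h4, falls outside the set because of its symbol, and was looked at after its values were seen. It lies alone on chromosome 6 (chr6:136803993-136804431, minus strand) beside H2aj, an H2A variant gene. A peak of 314 bp (chr6:136804398-136804711, place 2465) had its midpoint 123.5 bp upstream of its start site and 3693.5 bp from H2aj. The peak covered 284 of the 300 bases of its RefSeq promoter window (GRCm38.p6, chr6:136804382-136804681). Unlike the H4c12 window, this one held a TTCNNNGAA match, 148 to 140 bases before the start site and inside the peak, in capitals here.
H4f16: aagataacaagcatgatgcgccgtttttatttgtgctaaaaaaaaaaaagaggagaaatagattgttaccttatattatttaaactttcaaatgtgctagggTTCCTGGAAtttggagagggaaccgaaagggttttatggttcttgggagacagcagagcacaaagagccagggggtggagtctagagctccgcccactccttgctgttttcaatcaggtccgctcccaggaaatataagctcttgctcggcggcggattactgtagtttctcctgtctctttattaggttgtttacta

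For 4 further histone genes outside the set no peak was listed within 5 kb. H4bc24, once called Hist1h2br, was 81.9 kb from one. In the small chromosome 11 group, once called Hist3, H3f4, H2aw and H2bu2 were 12.4, 19.4 and 25.3 kb from the same peak.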
